A study of Mus musculus with 6 samples.

Results

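The L1Md elements are mouse LINE-1 (L1) retrotransposons, and they were examined here in RNA recovered with Gtsf1, a small zinc-finger protein also called Asterix. They were taken as every annotated copy of the L1 family whose subfamily name starts with L1Md. This gave 66448 copies with a value in at least 1 library, out of 1753368 annotated features. The copies fell into 6 subfamilies, with 35107 copies of L1Md_F2, 13561 of L1Md_T, 8740 of L1Md_A, 6885 of L1Md_F3, 1642 of L1Md_F and 513 of L1Md_Gf. Reads were summed over all copies of a subfamily, and single copies were described where their mean over the 4 crosslinked libraries was at least 1 RPM (reads scaled to the total reads of the library), which 20 copies reached. The mean took inputs and pull-downs together, so a copy could reach it through the pull-downs alone.

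LINE-1 elements move by copying their own RNA into DNA with the proteins that the same RNA encodes. In the mouse, the A, T and Gf types of L1Md hold the full-length copies that can still move, while the F types are older and largely fixed in place. In the male germ line, L1 RNA is held down by small RNAs of the piRNA pathway, and loss of Gtsf1, a cofactor of that pathway, releases L1 expression there.

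The samples were eCLIP libraries from P19, a mouse embryonal carcinoma line grown in culture. All cells had been transiently transfected with mouse Gtsf1 carrying a C-terminal TEV-Strep tag, expressed under EF-1alpha promoter control from pEF, and were collected after 48 hours. Crosslinked cells were irradiated with ultraviolet light at 254 nm, which joins RNA to protein, and non-crosslinked cells were not. Lysates were treated with RNase I, an input was set aside, and tagged protein was captured on MagStrep beads to give the pull-down. The 4 groups were crosslinked input (n = 2), crosslinked pull-down (n = 2), non-crosslinked input (n = 1) and non-crosslinked pull-down (n = 1). Every group carried the transfected protein, so the set held no untransfected or untagged control. The labels do not say whether replicates came from separate cultures, so p-values measure the spread between these libraries, which may be technical. Non-crosslinked values have no replicate.

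The libraries held between 13168593 and 18418166 reads. The pre-mRNA feature of the Gtsf1 gene was at 46.9 and 46.3 RPM in the crosslinked inputs, against 102 and 210.3 RPM after their pull-down. It went from 49.2 to 40.6 RPM without crosslinking. Other features of that gene were not counted in. Marker levels were those of the pre-mRNA feature, or of the summed exons where a gene had none. Of 10 marker genes of pluripotent embryonal carcinoma cells, 8 had reads in all 3 inputs. The 10 summed to between 17.0 and 22.6 RPM, with Pou5f1, Sox2 and Dnmt3b the highest. Sall4, Dppa5a and Zfp42 reached at most 0.0707, 0.0543 and 0.0573 RPM. The 4 endoderm and 4 mesoderm markers summed to at most 0.676 and 0.565 RPM, with Sox17, Mixl1 and Hand1 at 0. The 4 neural markers summed to 2.40 to 2.48 RPM, mostly from Tubb3. Over all features tested, the median log2 ratio of crosslinked pull-down to input was -0.21, and with TMM scaling it was -0.00354 in the table with copies summed by subfamily, so log2 ratios under TMM lie higher by that shift.

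L1Md RNA as a whole was not higher in the crosslinked pull-downs than in their inputs. Summed over all copies, the crosslinked inputs had 1165 and 1330 RPM and the crosslinked pull-downs 964 and 1168 RPM. The groups overlapped. The log2 ratio was -0.14 (SE 0.19, adjusted p = 0.722, quasi-likelihood test of edgeR on 2 against 2 libraries with Benjamini-Hochberg adjustment over the whole table), and its sign turned under TMM scaling (0.070) and without L1Md_T_dup18258 (0.27). Without crosslinking the sum went from 695 RPM in the input to 1559 RPM in the pull-down, a ratio of 2.24. The libraries are of bulk cells, so fewer cells with an RNA and less of it per cell cannot be told apart.

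That sum was set largely by a single copy. L1Md_T_dup18258 held 60.8% of all L1Md reads of the 4 crosslinked libraries and 90.8% of those of L1Md_T, the T type being among the mobile ones. The 20 copies at 1 RPM or more together held 65.9%. At the other end, 59802 copies had less than 1 read over the 4 crosslinked libraries, and 271 copies had 10 reads or more. A read with several matching features had been split between them in fractions, so the level of a single copy can include reads from near-identical copies, and values of single copies are uncertain to that extent. Lengths of the copies are not in the files used here, so levels were not compared per length between copies or subfamilies.

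Of the 6 subfamilies, L1Md_F and L1Md_Gf were called higher in the crosslinked pull-downs and 0 were called lower, at an adjusted p under 0.05 with edgeR. In the same table, 5.33% of all rows tested were called higher and 2.71% lower. At an unadjusted p under 0.05 the L1Md counts were also 2 and 0, beside 8500 of 39069 rows in either direction.

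L1Md_Gf, the mobile type with the fewest copies here, rose most. Its inputs had 1.67 and 2.55 RPM and its pull-downs 6.05 and 8.76 RPM. Both pull-downs lay above both inputs, with a log2 ratio of 1.90 (SE 0.28, adjusted p = 0.0107 with edgeR). The non-crosslinked input and pull-down had 1.73 and 2.12 RPM, a ratio of 1.23 with a 95% counting interval of 0.701 to 2.26.

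L1Md_F, an older type, had 13.7 and 15.6 RPM in the inputs against 26.8 and 23.0 RPM in the pull-downs. The groups did not overlap, and the log2 ratio was 0.85 (SE 0.16, adjusted p = 0.0301 with edgeR). The call was lost without crosslinked input 1 (adjusted p = 0.209), without crosslinked input 2 (0.0564) and without crosslinked pull-down 1 (0.0560). The non-crosslinked libraries had 8.64 RPM in the input and 13.2 RPM in the pull-down.

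The remaining 4 subfamilies did not pass the test. L1Md_T, with the most reads, had 816 and 974 RPM in the inputs and 538 and 754 RPM in the pull-downs, both pull-downs lying below both inputs (log2 ratio -0.38, SE 0.23, adjusted p = 0.396 with edgeR). Without crosslinking the order was the opposite, with 450.1 RPM before and 1230 RPM after pull-down. L1Md_A, another mobile type, showed little difference with crosslinking.

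L1Md_A had 42.0 and 46.0 RPM in the crosslinked inputs against 41.9 and 41.6 RPM in their pull-downs, and went from 33.7 to 40.2 RPM without crosslinking. Its edgeR log2 ratio was 0.01 (SE 0.16, adjusted p = 0.971), and the sign turned when unannotated reads were counted in the library size (-0.078). L1Md_F2, the subfamily with the most copies, had 229 and 237 RPM in the inputs against 276 and 279 RPM in the pull-downs. These pull-downs lay above the inputs by less than the test could separate (log2 ratio 0.34, SE 0.16, adjusted p = 0.273 with edgeR). L1Md_F3 had 63.0 and 55.2 RPM in the inputs and 75.3 and 61.5 RPM in the pull-downs, which overlapped (log2 ratio 0.30, SE 0.17, adjusted p = 0.379 with edgeR). Without crosslinking, L1Md_F2 went from 144 to 183 RPM and L1Md_F3 from 56.9 to 90.7 RPM.

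**Figure D1:**
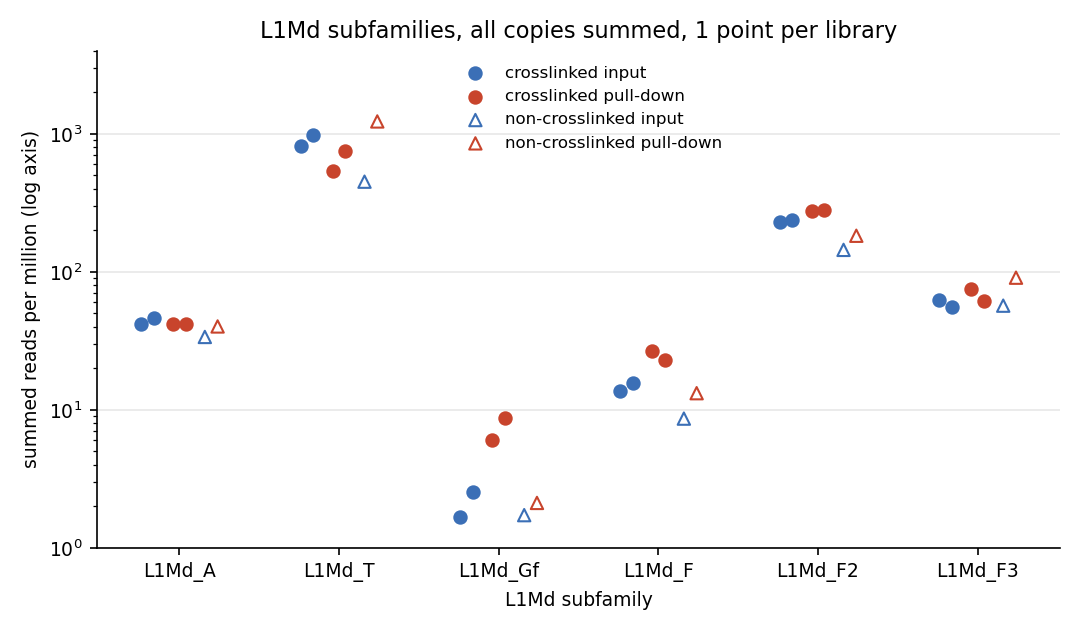
Summed RPM of each L1Md subfamily (log axis), 1 point per library, with circles for crosslinked and triangles for non-crosslinked libraries, blue for input and red for pull-down. L1Md_Gf and L1Md_F had both crosslinked pull-downs above both inputs, while L1Md_T had them below, at 538 and 754 against 816 and 974 RPM.

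Each call of a subfamily was then read against its most read copy. The most read copy held 51.8% of the reads of L1Md_Gf, 25.3% of L1Md_F3, 16.3% of L1Md_F, 2.45% of L1Md_F2 and 2.02% of L1Md_A over the 4 crosslinked libraries. With the most read copy of each subfamily left out, 0 of 6 subfamilies were called in either direction with edgeR. At an unadjusted p under 0.05, 1 was higher, beside 8501 of 39069 rows in either direction.

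The rise of L1Md_Gf rested on L1Md_Gf_dup364. Without that copy, L1Md_Gf had 1.67 and 2.55 RPM in the inputs and 1.98 and 2.70 RPM in the pull-downs, and the groups overlapped. The log2 ratio was 0.24 (SE 0.27, adjusted p = 0.650 with edgeR).

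L1Md_F was less tied to its most read copy. Without L1Md_F_dup1796 it had 12.9 and 14.4 RPM in the inputs and 20.2 and 18.4 RPM in the pull-downs, still without overlap, and the log2 ratio of 0.59 did not pass (adjusted p = 0.0768 with edgeR). Without any of its 3 copies at 1 RPM or more the log2 ratio was 0.82 (adjusted p = 0.0269 with edgeR), so the reads spread over its many weakly covered copies also lay higher in the pull-downs. L1Md_T without L1Md_T_dup18258 had 77.0 and 77.6 RPM in the inputs, 62.5 and 69.1 RPM in the pull-downs, and 59.6 and 64.0 RPM in the non-crosslinked input and pull-down.

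**Figure D2:**
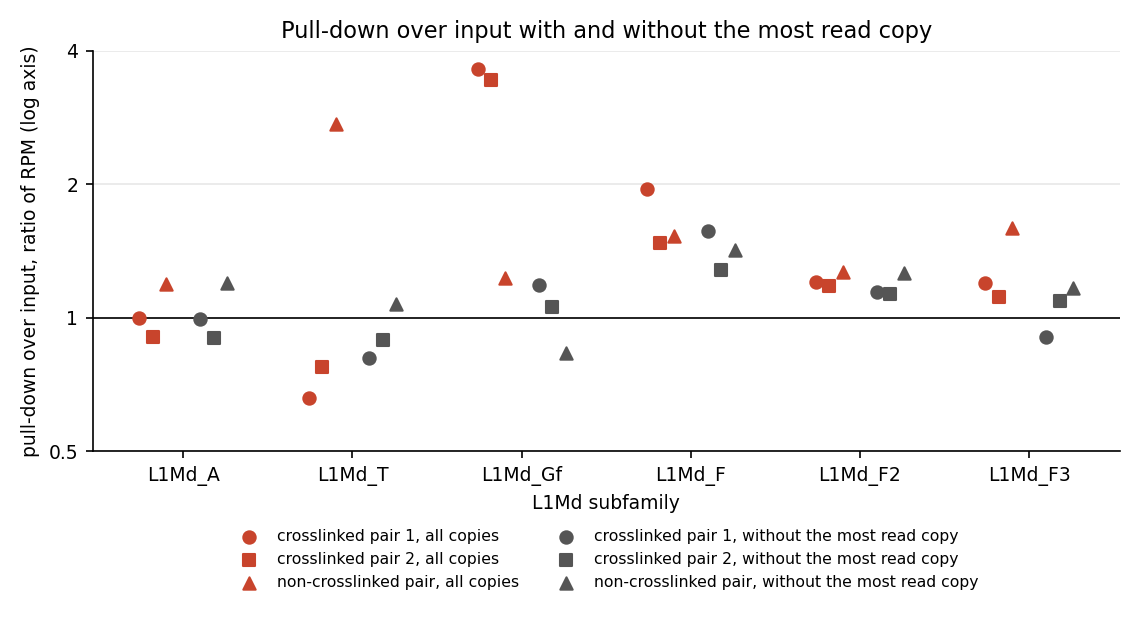
Ratio of pull-down to input RPM (log axis) for each L1Md subfamily, with all copies in red and without its most read copy in grey, for the same-numbered crosslinked libraries (circles and squares) and the non-crosslinked pair (triangles). The crosslinked ratio of L1Md_Gf and the non-crosslinked ratio of L1Md_T, which was 2.73, moved close to 1 once a single copy was left out.

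Among the 20 single copies tested were 10 of L1Md_F2, 4 of L1Md_F3, 3 of L1Md_F, 2 of L1Md_T, 1 of L1Md_Gf and 0 of L1Md_A. The 3 copies just inside the minimum were L1Md_F2_dup46999, L1Md_F_dup3654 and L1Md_F_dup323, at a mean of 1.11, 1.06 and 1.06 RPM. Just outside lay L1Md_F2_dup6503, L1Md_A_dup2463, which is the most read copy of L1Md_A, and L1Md_F2_dup30288, at 0.950, 0.874 and 0.852 RPM.

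With edgeR, 8 of the 20 were called higher in the crosslinked pull-downs and 0 lower, where 6.41% of all single features tested were called higher and 3.47% lower. Of the other LINE copies that passed the same minimum, 317 of 391 were called higher, a larger share than of L1Md. For L1_Mus and L1VL, the other young mouse elements, it was 21 of 46 (45.7%), near the 40% of L1Md. For the rodent Lx elements it was 161 of 192 and for older L1 102 of 106. All these shares are set in part by the minimum, which copies can pass through their pull-downs, and are not compared further. At an unadjusted p under 0.05 the L1Md counts were 10 and 5, beside 9092 of 39872 features in either direction. Limma and DESeq2 also called 8 L1Md copies higher and 0 lower. The called copies were 6 of L1Md_F2, 1 of L1Md_F and 1 of L1Md_Gf. A mean of at least 1 RPM was reached through the pull-downs alone by 6 of the 20 copies, whose inputs averaged less than 1 RPM. Among these were 5 of the 8 called copies: L1Md_F2_dup1899, L1Md_Gf_dup364, L1Md_F2_dup32592, L1Md_F2_dup50902 and L1Md_F2_dup60901. The minimum favoured a rise in them, which their p-values and counting intervals given below do not take into account. The count likewise describes the copies that passed and says nothing of the others. Both pull-downs lay above both inputs in 10 copies, against 10.8% of all features tested, and below both inputs in 8 copies, against 57.7% of all features. In those 8 the RPM ratio ran from 0.467 to 0.710. Among them were 3 copies with pull-downs averaging less than 1 RPM, which passed the minimum through their inputs alone, so a fall was favoured.

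L1Md_F2_dup1899 was the most read copy of L1Md_F2 and nearly absent from the inputs. It had 1 and 3.5 reads in the crosslinked inputs and 244 and 173 reads in the crosslinked pull-downs, 0.0573 and 0.190 RPM against 15.1 and 10.9 RPM. Both pull-downs lay far above both inputs, by a pooled ratio of 104 (counting interval 45.4 to 432) and a log2 ratio of 6.56 (SE 0.39, adjusted p = 0.000361 with edgeR). The log2 ratio was 5.93 without crosslinked input 1 and 7.75 without crosslinked input 2. Without crosslinking it had 0 reads in the input and 6 reads, 0.456 RPM, in the pull-down, so the crosslinked pull-downs averaged 28.6 times the level of the non-crosslinked pull-down.

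L1Md_Gf_dup364 had 0 reads in both crosslinked inputs and 65.8 and 96 reads in the pull-downs, 4.08 and 6.07 RPM. Against a floor of 3 reads over both inputs, the pull-downs were at least 60.6-fold higher (adjusted p = 0.00116 with edgeR), and the lower 95% counting limit of the ratio, which also takes in the error of the pull-down reads, was 48.8. The non-crosslinked pull-down had 9 reads, 0.683 RPM, against 0.0833 reads in its input, and the crosslinked pull-downs averaged 7.42 times that pull-down.

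L1Md_F2_dup32592 was also close to 0 in the inputs, with 1.67 and 1.17 reads against 76.7 and 85.2 reads in the crosslinked pull-downs (log2 ratio 5.89, SE 0.30, adjusted p = 0.000355 with edgeR). Its pooled ratio was 64.2, with a counting interval of 20.4 to 297. Unlike L1Md_F2_dup1899, it was as high without crosslinking, with 0 reads in the non-crosslinked input and 70.8 reads in the pull-down, at least 25.4-fold higher against the floor of 3 reads and with a lower counting limit of 20.2. Its crosslinked pull-downs, at 4.76 and 5.38 RPM, averaged 0.942 times the non-crosslinked one, at 5.38 RPM.

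L1Md_F2_dup50902 had 5.03 and 3.56 reads in the inputs and 66 and 61 reads in the pull-downs (log2 ratio 4.04, SE 0.22, adjusted p = 0.000355 with edgeR). The non-crosslinked pull-down had 29.0 reads against 0.0256 in its input, a ratio with a lower counting limit of 7.92. Its crosslinked pull-downs averaged 1.80 times the non-crosslinked one, so this copy stood between the preceding ones.

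L1Md_F2_dup60901 had 9 and 10.2 reads in the inputs and 52 and 42 reads in the pull-downs (log2 ratio 2.55, SE 0.21, adjusted p = 0.000688 with edgeR). Its non-crosslinked libraries had 0 reads in the input and 5.08 in the pull-down, and the crosslinked pull-downs averaged 7.63 times the non-crosslinked one. L1Md_F_dup1796, the most read copy of L1Md_F, had 14.8 and 22.8 reads in the inputs and 105 and 73.0 reads in the pull-downs (log2 ratio 2.48, SE 0.26, adjusted p = 0.00198 with edgeR). In both copies the groups did not overlap. Without crosslinking L1Md_F_dup1796 had 0.167 reads in the input and 12.6 in the pull-down, a ratio with a lower 95% counting limit of 3.28, and its crosslinked pull-downs averaged 5.84 times the non-crosslinked one.

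L1Md_F2_dup41989 and L1Md_F2_dup1316 were the called copies with the most input reads. L1Md_F2_dup41989 had 20.2 and 20.7 reads in the inputs and 90.0 and 90.5 reads in the pull-downs (log2 ratio 2.39, SE 0.17, adjusted p = 0.000411 with edgeR), with 0.1 and 2 reads in the non-crosslinked input and pull-down. L1Md_F2_dup1316 had 24 and 26.1 reads in the inputs and 84.1 and 85.5 reads in the pull-downs (log2 ratio 2.02, SE 0.16, adjusted p = 0.000593 with edgeR). The latter was the called copy with more than 3 reads in every library, and its non-crosslinked libraries repeated the difference, at 25 reads in the input and 84.1 in the pull-down, a ratio of 3.61.

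**Figure D3:**
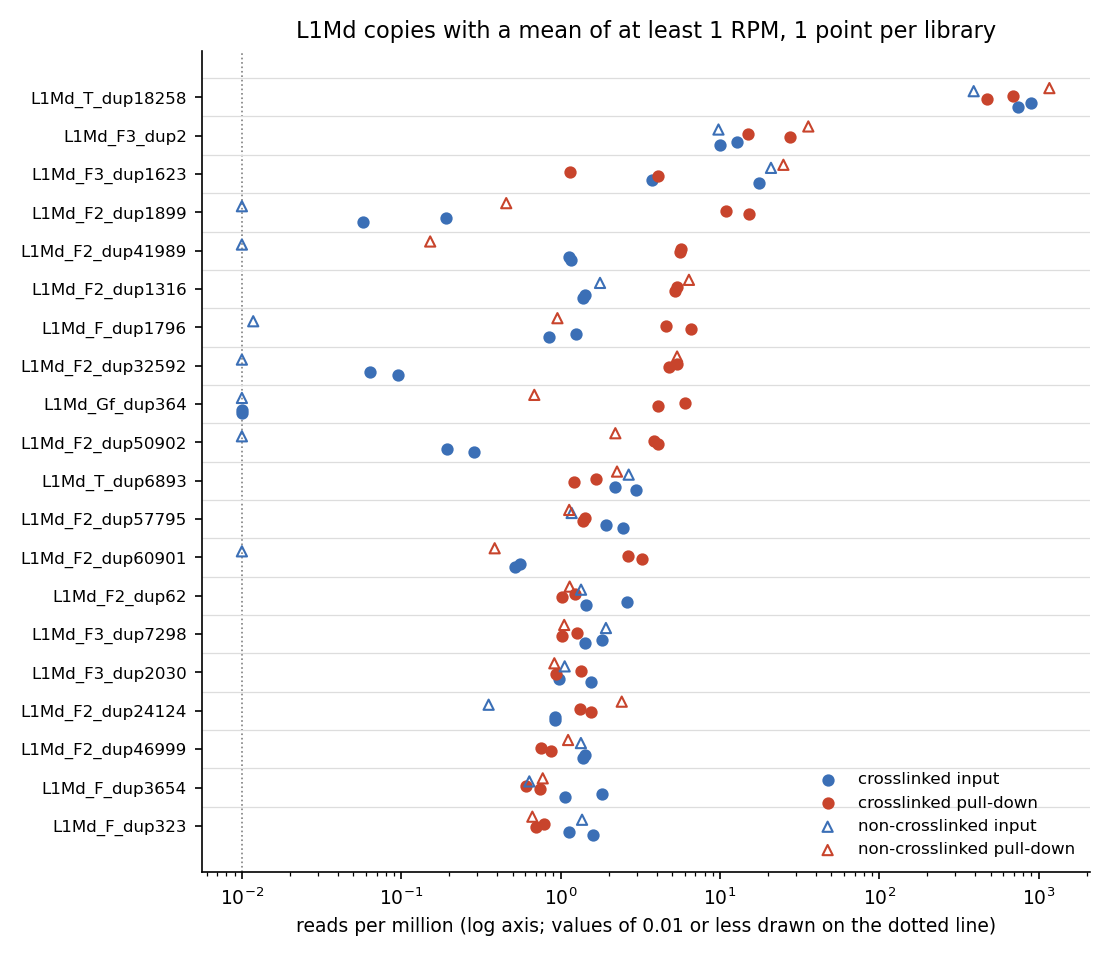
RPM (log axis) of the 20 L1Md copies with a mean of at least 1 RPM, 1 point per library, with circles for crosslinked and triangles for non-crosslinked libraries, blue for input and red for pull-down, and values of 0.01 RPM or less drawn on the dotted line. L1Md_F2_dup1899 and L1Md_F2_dup32592 both have crosslinked pull-downs far above the inputs, while their non-crosslinked pull-downs lie at 0.456 and 5.38 RPM.

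The remaining 12 copies were not called. L1Md_T_dup18258 was at 739 and 896 RPM in the crosslinked inputs, against 476 and 685 RPM after pull-down. Both pull-downs lay below both inputs, and the log2 ratio of -0.40 did not pass (SE 0.25, adjusted p = 0.407 with edgeR). Without crosslinking its input, at 391 RPM, was the lowest of the 6 libraries and its pull-down, at 1166 RPM, the highest, a ratio of 2.99 (counting interval 2.89 to 3.08).

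L1Md_F3_dup2 had 10.0 and 12.7 RPM in the inputs, 27.5 and 15.1 RPM in the pull-downs, and went from 9.78 to 35.8 RPM without crosslinking. Its crosslinked pull-downs differed from each other by more than the lower of them did from the inputs (log2 ratio 0.99, SE 0.30, adjusted p = 0.110 with edgeR), and it was called only without crosslinked pull-down 2 (adjusted p = 0.00688). L1Md_F3_dup1623 had 17.5 and 3.75 RPM in the inputs and 4.10 and 1.14 RPM in the pull-downs, which overlapped (log2 ratio -1.91, SE 0.80, adjusted p = 0.224 with edgeR). Each library moved this value, which was -0.44 without crosslinked input 1 (adjusted p = 0.753), -2.63 without crosslinked input 2 (adjusted p = 0.000414, called lower), -3.09 without crosslinked pull-down 1 (0.130) and -1.28 without crosslinked pull-down 2 (0.528). Same-numbered libraries gave ratios of 0.234 and 0.305, and with a replicate block L1Md_F3_dup1623 was called lower (adjusted p = 0.00538 with edgeR). The labels do not say whether those libraries share a lysate. The non-crosslinked libraries of this copy, at 20.9 RPM in the input and 25.0 RPM in the pull-down, were above all 4 crosslinked ones. Of the 9 other copies, L1Md_F2_dup24124 had a log2 ratio of 0.73 (adjusted p = 0.141 with edgeR) and the rest ran from -0.98 to -0.06.

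The difference that crosslinking made was tested as an interaction over all 6 libraries, in which the lone non-crosslinked libraries were assumed to vary like the replicates. With edgeR, 0 of 6 subfamilies and 0 of 20 copies passed, as did 0.0% of all rows of either table. Limma also called 0. The median log2 difference, crosslinked minus non-crosslinked, was 0.57 over all rows by subfamily and 0.56 over all single features. A difference of 0 thus lay below the middle of all rows. For L1Md the medians were -0.22 over the 6 subfamilies and -0.81 over the 20 copies. Under TMM scaling the medians were -0.023 and -0.012 over all rows, against -0.82 and -1.39 for L1Md. Differences given below are without TMM. When 200 of 39872 features were given a simulated log2 change of 2, this interaction test recovered 42, so differences of that size could often be missed.

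L1Md_T had the lowest unadjusted p of the subfamilies, with a crosslinked minus non-crosslinked log2 difference of -1.93 (SE 0.39, adjusted p = 0.311 with edgeR), and L1Md_T_dup18258 a difference of -2.08 (SE 0.44, adjusted p = 0.335). Without crosslinked input 1 both passed, at -2.07 (adjusted p = 0.0221) and -2.23 (adjusted p = 0.0388). L1Md_Gf differed the other way, by 1.47 (SE 0.60, adjusted p = 0.350 with edgeR). Summed over L1Md the difference was -1.40 (adjusted p = 0.311), and without L1Md_T_dup18258 it was -0.20 (adjusted p = 0.715).

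The non-crosslinked pair is 1 library against 1, so an SE or p for it rests wholly on the spread of the crosslinked replicates and has no replicate check of its own. Under that assumption, edgeR called L1Md_T higher in the pull-down (log2 ratio 1.55, SE 0.33, adjusted p = 0.0394) and none of the other 5 subfamilies in either direction, where 3.95% of all rows were called higher and 7.12% lower. Of the single copies, 8 of 20 were called higher and 0 lower there, where 5.01% of all features were called higher and 7.94% lower. They were L1Md_T_dup18258, L1Md_F3_dup2, L1Md_F_dup1796, L1Md_F2_dup1316, L1Md_F2_dup24124, L1Md_F2_dup32592, L1Md_F2_dup50902 and L1Md_F2_dup60901, the last on 0 against 5.08 reads.

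Taken as log2(RPM + 1), a scale that compresses the change of copies with few reads, 6 of the 8 called copies had a larger ratio in both crosslinked pairs than in the non-crosslinked pair. The lesser excess of the 2 pairs was 2.78 for L1Md_F2_dup1899, 1.60 for L1Md_Gf_dup364, 1.42 for L1Md_F2_dup41989, 0.76 for L1Md_F2_dup60901, 0.38 for L1Md_F_dup1796 and 0.31 for L1Md_F2_dup50902. L1Md_F2_dup1316 and L1Md_F2_dup32592 fell short in both pairs. The copies were chosen by their crosslinked values, which favours such an excess, so the count is a description. The order also depends on the scale, because 7 of the 8 had less than 1 read in the non-crosslinked input. In the edgeR fit of all 6 libraries the difference of L1Md_F2_dup60901 was -3.13 (SE 1.62) and that of L1Md_F2_dup50902 was -4.15 (SE 1.41), opposite in sign to their excess, as were those of L1Md_F2_dup41989 and L1Md_F_dup1796, while that of L1Md_F2_dup1899 was 0.62 (SE 1.67).

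**Figure D4:**
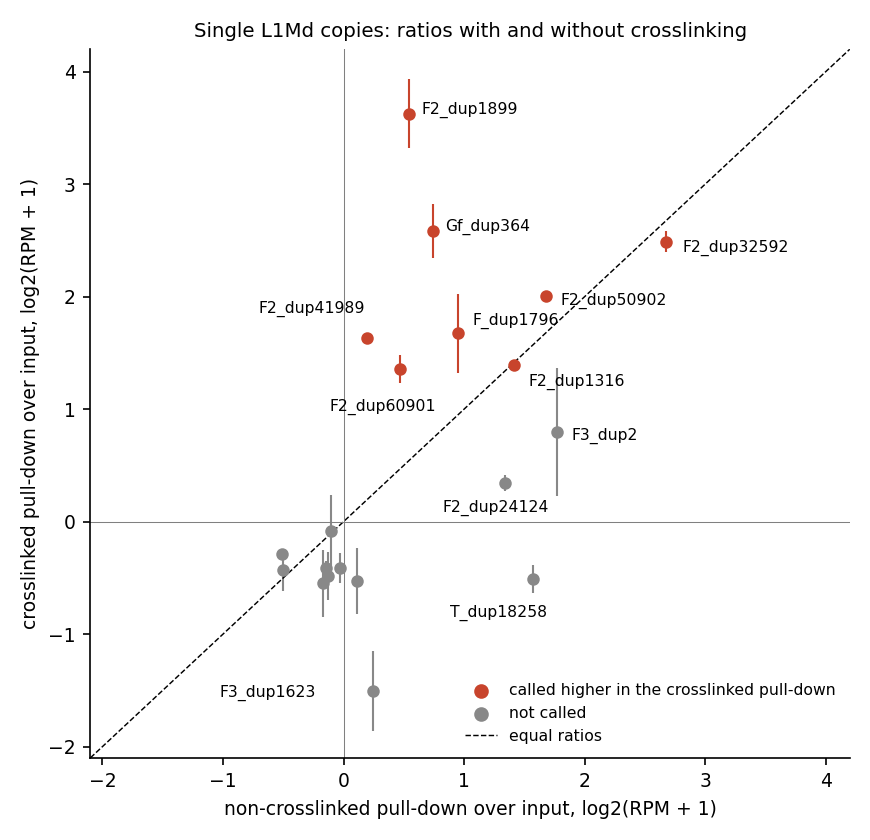
Pull-down over input on the log2(RPM + 1) scale for the 20 L1Md copies, with the non-crosslinked pair across and the mean of the same-numbered crosslinked pairs upward, bars spanning both pairs, and copies called higher with crosslinking in red. L1Md_F2_dup1899 and L1Md_Gf_dup364 lie far above the dashed line of equal ratios, L1Md_F2_dup1316 and L1Md_F2_dup32592 lie at or just under it, and L1Md_T_dup18258 lies below it.

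L1Md was next set against the other LINE groups. All LINE reads together came to 3985 and 4141 RPM in the crosslinked inputs, and to 7665 and 7742 RPM after pull-down. L1Md made up 29.2% and 32.1% of LINE reads in the inputs (30.7% ± 2.05, SD, n = 2) and 12.6% and 15.1% in the pull-downs (13.8% ± 1.77, SD, n = 2). The ranges did not overlap. The ratio of the shares was 0.451 with a two-sided exact permutation p = 0.333, the smallest that 2 against 2 libraries allow, so the design could not reach 0.05.

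The same held for the many copies outside the most read one. Without L1Md_T_dup18258 the L1Md share was 13.3% ± 0.183 (SD, n = 2) in the inputs and 6.82% ± 0.0405 (SD, n = 2) in the pull-downs. Without crosslinking the share with all copies was 34.0% in the input (95% Wilson interval 33.5 to 34.5) and 27.1% in the pull-down (26.8 to 27.4), and without that copy 18.4% (17.9 to 18.9) and 8.57% (8.35 to 8.79). Crosslinked or not, the L1Md share of LINE reads was thus lower in each pull-down than in its input.

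The RPM ratio of crosslinked pull-down to input was 0.855 for L1Md and 1.13 for L1Md without L1Md_T_dup18258. For the other young mouse elements, L1_Mus and L1VL, it was 1.57, for L2 and other LINE families 1.33, for older L1 2.38 and for the rodent Lx elements 3.07. Without crosslinking the ratios were 2.24 for L1Md, 1.29 without L1Md_T_dup18258, 1.78 for L1_Mus and L1VL, 1.53 for L2 and other families, 3.18 for older L1 and 4.41 for Lx. L1Md without that copy was thus lower than the other groups named here in both settings, though no copy was left out of those groups. With all copies, L1Md was the lowest with crosslinking only. Without crosslinking it lay above L1_Mus and L1VL and above L2 and other families.

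Between inputs and crosslinked pull-downs, the ratio of L1Md to Lx changed by -1.85 on the log2 scale, to older L1 by -1.48, to L1_Mus and L1VL by -0.88 and to L2 and other families by -0.64. Leaving out L1Md_T_dup18258 gave -1.44, -1.07, -0.47 and -0.24. Each of the 12 such comparisons made, which also covered L1Md without any copy at 1 RPM or more, had the groups apart and an exact permutation p = 0.333, the smallest possible, which adjustment left at 0.333.

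**Figure D5:**
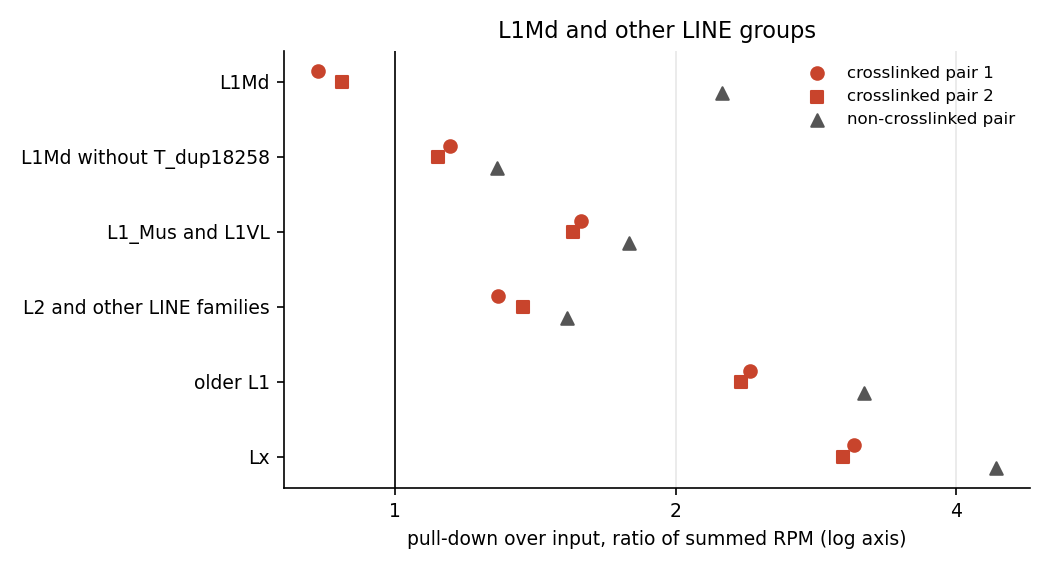
Ratio of pull-down to input for summed RPM (log axis) of L1Md and of other LINE groups, for the same-numbered crosslinked libraries (red circles and squares) and the non-crosslinked pair (grey triangles). L1Md lies under 1 with crosslinking and at 2.24 without it, and at 1.13 and 1.29 without L1Md_T_dup18258, left of the other groups.

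In the order of the log2 ratio from the lowest among 121 LINE subfamilies tested, L1Md_T was in position 1, L1Md_A 3, L1Md_F3 7, L1Md_F2 9, L1Md_F 41 and L1Md_Gf 104. Called higher with edgeR were 2 of the 6 L1Md subfamilies, 4 of 11 of L2 and other LINE families, 4 of 7 of L1_Mus and L1VL, 4 of 6 other L1, 52 of 70 older L1 and 21 of 21 Lx subfamilies.

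The authors' deposited table, which gives an enrichment ratio by a formula not stated, lists 71 L1Md copies with a median ratio of 1.59, of which 46 are above 1. In the authors' deposited table the median is 1.75 over 794 LINE copies and 1.37 over all 216085 features. Of the 20 copies described here, 10 are listed in the authors' deposited table, at ratios from 0.129 for L1Md_F_dup3654 to 4.66 for L1Md_F2_dup1316, the listed one among the 8 called. L1Md_F2_dup45159 has the highest L1Md ratio in the authors' deposited table, 307, and was at 0.313 and 0.414 RPM in the crosslinked pull-downs, against 0.693 RPM in the non-crosslinked one. L1Md_F3_dup2 is at 0.835 in the authors' deposited table, while its RPM ratio here was 1.87.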

How the data were processed

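For each library the authors deposited expected counts per annotated feature, with reads of several matching features in a class divided equally among them, as the values show. The authors also deposited RPM values, which equal those counts scaled to all reads of the library, and 1 enrichment ratio per feature for the whole series, of unstated formula. The submitters' processing notes name bcl2fastq 2.19, STAR 2.5.2b, bedtools 2.29.0 and the build mm10, with no roles; removal of PCR duplicates is not given in the sources used here. Copies carry names without coordinates, so no sequence was read.

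Expected counts were rounded and compared with edgeR 4.0.16 (quasi-likelihood) in R 4.3.3 between 2 crosslinked pull-downs and 2 crosslinked inputs, with annotated reads as library size and no factors. A table of single features (39872 tested) was fitted whole, above a 1 RPM minimum for the mean of the 4 crosslinked libraries. So was a table (39069 tested) in which the copies of all transposable elements were summed by subfamily and other features stayed single. Calls were made at a Benjamini-Hochberg adjusted p under 0.05. Unannotated reads, 6.99% to 14.4% of a library, stayed out of tests and in RPM. Counting intervals (95%, exact) and the floor of 3 reads cover counting error only, since reads are not independent molecules.

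Copies named were, by rule, the most read of each subfamily, up to 5 called in each direction, those with the largest excess over or shortfall to the non-crosslinked ratio, and 3 on each side of the minimum; other copies were named after their values were seen. Alternatives were other filters, pseudocounts, library sizes and scalings, limma 3.58.1, DESeq2 1.42.0, a replicate block and each crosslinked library left out. Leaving out L1Md_T_dup18258 or the copies at 1 RPM or more, and testing single copies for the interaction, were added after seeing the data. The L1Md members and the lists were chosen with earlier results of these data known. When 200 of 39872 features were given a simulated log2 change of 2, edgeR recovered 172 with 6 false calls.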

Additional observations from a re-analysis of the deposited data

Results flagged for a closer look

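The ratio of pull-down to input lay above 1 in the non-crosslinked pair and below 1 in both same-numbered crosslinked pairs for several L1Md sums and copies. For L1Md_T it was 2.73 without crosslinking and 0.660 and 0.774 with it, and for L1Md_T_dup18258 it was 2.99 against 0.644 and 0.764. All L1Md copies together, of which that copy is the larger share, had 2.24 against 0.828 and 0.878. L1Md_A had 1.19 against 0.997 and 0.904, the first of these lying within 0.01 of 1. L1Md_F3_dup1623 had 1.20 against 0.234 and 0.305, and L1Md_F_dup3654 had 1.21 against 0.705 and 0.330. The 1.21 rests on 9 against 10.2 reads, and its counting interval of 0.436 to 3.32 includes 1. The test of the difference itself, the edgeR interaction over all 6 libraries, passed for none of these with all libraries in the fit, and the non-crosslinked groups had 1 library each.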

How the results depend on the processing

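The count of 8 L1Md copies called higher stood at 8 or 9 under every alternative scaling, library size and test and with each crosslinked library left out (8 to 9). It was 15 of 44 copies tested at a minimum of 0.5 RPM, where 4184 of all 77398 features were called higher. At 5 RPM it was 1 of 4 copies, beside 551 of 5928 features. With no filter it was 0 of 7858 copies, as it was 0 of all 942743 features. At an unadjusted p under 0.05 that fit had 205 copies higher and 74 lower, beside 41845 of all features in either direction. Copies called lower, 0 in the reported fit, were 1 at 0.5 RPM, 1 with limma on log2(RPM + 0.1) and 0 to 2 with a library left out. Subfamilies called higher, 2 in the reported fit, were 0 with no filter, 1 at a minimum of 5 RPM, 3 of 5 over only the copies at 1 RPM or more, where L1Md_F2 was also called (2.11, adjusted p = 0.000935 with edgeR) but several of its copies had passed the minimum through their pull-downs, so a rise was favoured by the choice, 0 without the most read copy of each, 1 without copies at 1 RPM or more, and 1 to 2 with a library left out. The interaction gave 0 to 1 subfamilies and 0 to 1 copies with a library left out. The log2 ratio of summed L1Md reads turned to 0.070 with TMM, 0.066 with DESeq2, 0.17 without the most read copies, 0.15 without copies at 1 RPM or more and 0.27 without L1Md_T_dup18258, and ran from -0.30 to 0.00815 with a library left out. The ratio of L1Md shares of LINE reads ran from 0.410 to 0.492 with a library left out and from 0.440 to 0.515 under the other alternatives.

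L1Md_A reversed to -0.078 with unannotated reads in the library size and -0.073 with limma, and ran from -0.066 (without crosslinked input 1) to 0.095 with a library left out. L1Md_F3_dup2030, at -0.06, reversed to 0.14 with TMM, 0.044 without rRNA and 0.16 with DESeq2, and ran from -0.35 to 0.28 (without crosslinked input 1) with a library left out, 0.18 without crosslinked pull-down 1. The cause of these reversals was not tested. The labels do not say whether same-numbered libraries share a lysate, and with 2 pairs they were not treated as paired (Pearson r of their deviations 0.11 across all features tested and 0.47 across the 20 copies). With a replicate block 8 copies were called higher, 1 lower (L1Md_F3_dup1623, adjusted p = 0.00538 with edgeR), 1 subfamily higher and 0 by the interaction, and L1Md_F lost its call (adjusted p = 0.0587).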

Other observations

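The libraries in which L1Md_F3_dup1623 was high were also those in which Rnu6, a feature of the U6 small nuclear RNA, was high. Rnu6 was at 8.40 and 2.54 RPM in the crosslinked inputs, at 3.43 and 1.51 RPM after pull-down, and went from 9.49 to 13.0 RPM without crosslinking. L1Md_F3_dup1623 had 17.5 and 3.75, 4.10 and 1.14, and 20.9 and 25.0 RPM in the same order of libraries. The pair of L1Md_F3_dup1623 and Rnu6 was picked after its values were seen and was not tested. The small nuclear RNA class as a whole was at 47732 and 33870 RPM in the crosslinked inputs and 24666 and 19888 RPM after pull-down. Without crosslinking that class went the other way from the pair, from 42990 to 20823 RPM.

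Fractions of a read appeared in L1Md_T_dup18258 in all 6 libraries, so part of its reads were shared with another feature of its class. The next L1Md_T copy, L1Md_T_dup6893, had a mean of 2.01 RPM over the 4 crosslinked libraries against 699 RPM for L1Md_T_dup18258.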
